A study of Mus musculus with 9 samples.

Results

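Tek, Tie1, Angpt1, Angpt2 and Ptprb encode the receptors, the main ligands and a receptor phosphatase of the angiopoietin pathway. Their chromatin was examined in wild-type mouse lung endothelial cells with ACT-seq, which tags DNA next to a histone mark with a Tn5 transposase brought there by an antibody through Protein A/G. The 5 genes were taken by name from 21883 protein-coding genes, each with its span on GRCm38 and 2 kb either side, and every peak with at least 1 base in that window was counted. The targets were the acetylations H3K14ac, H4K8ac, H3K18ac, H3K27ac, H3K23ac, H2AK5ac and H3K9ac, and the methylation H3K4me3, with IgG as the control antibody. Each of the 9 targets had 1 library, made from nuclei of isolated cells labelled WT; the sources used here give no strain, age, sex or number of animals. Without replicates no value below has a replicate error and no test was run. Intervals on reads cover counting error only. They take every read as independent, though the mates of a pair were counted singly, so they can be too narrow.

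The angiopoietin pathway keeps vessels stable and adjusts them when they sprout or leak. Angpt1, secreted mainly by mesenchymal and perivascular cells, activates the receptor tyrosine kinase Tie2, encoded by Tek and found mainly on endothelium. Angpt2, which endothelial cells make and store, activates or blocks Tie2 depending on context, Tie1 is a related receptor that modulates Tie2 signalling without a well-established ligand of its own, and Ptprb (VE-PTP) is an endothelial phosphatase that acts on Tie2 and VE-cadherin. H3K4me3 is known mainly from active gene starts, H3K27ac from active starts and enhancers, and H3K9ac mostly from active starts.

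All 5 genes had peaks of all 8 marks, but the marks lay in different places. Angpt2, the endothelial ligand, was the most densely covered, with 146 peaks in a gene of 51300 bp. Tek, Ptprb and Angpt2 each carried 3 places inside the gene, over 2 kb from both ends, where all 8 marks met, and Angpt2 held 4 in all. Tie1 had its single place of all 8 marks at its start, and Angpt1 had none.

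The promoter sequences are shown first, because both Tie receptor promoters lay under peaks of several marks while that of Angpt4, a further angiopoietin of the mouse, lay under none. RefSeq promoters on GRCm38.p6, running from 250 bases before to 50 bases after the start, were matched for 2 of the 5 genes, Tek at chr4:94739039-94739338 on the plus strand and Tie1 at chr4:118489800-118490099 on the minus strand. Angpt4 lies at chr2:151910957-151911256 on the plus strand. Capitals mark each ETS core, the letters GGAA read on either strand (printed as GGAA or TTCC), which is the core that ETS transcription factors are known to bind.

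Tek: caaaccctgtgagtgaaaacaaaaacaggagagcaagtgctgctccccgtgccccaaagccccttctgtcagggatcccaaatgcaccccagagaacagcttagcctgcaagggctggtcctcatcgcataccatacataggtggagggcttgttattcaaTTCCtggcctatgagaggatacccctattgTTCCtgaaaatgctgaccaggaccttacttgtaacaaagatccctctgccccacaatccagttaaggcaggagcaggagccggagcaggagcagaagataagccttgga

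Tie1: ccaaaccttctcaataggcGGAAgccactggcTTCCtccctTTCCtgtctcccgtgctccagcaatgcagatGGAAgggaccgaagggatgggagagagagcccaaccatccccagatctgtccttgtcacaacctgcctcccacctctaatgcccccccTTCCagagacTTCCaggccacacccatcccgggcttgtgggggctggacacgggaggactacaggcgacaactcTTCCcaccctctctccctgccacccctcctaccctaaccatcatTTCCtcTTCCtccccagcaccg

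Angpt4: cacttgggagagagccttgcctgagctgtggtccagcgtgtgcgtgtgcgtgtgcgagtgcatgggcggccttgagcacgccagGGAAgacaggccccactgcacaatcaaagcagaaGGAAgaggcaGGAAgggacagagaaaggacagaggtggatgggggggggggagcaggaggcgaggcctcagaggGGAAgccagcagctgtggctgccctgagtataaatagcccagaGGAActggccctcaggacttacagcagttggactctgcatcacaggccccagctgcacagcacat

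Peaks of 6 lists covered the Tek promoter. The H3K14ac, H4K8ac and H3K18ac lists covered all 300 bases, H3K27ac 248, H3K23ac 222 and H3K4me3 203, while H2AK5ac and H3K9ac covered 0. All 8 lists covered the Tie1 promoter, with 300 bases each for H3K14ac, H4K8ac, H3K18ac, H3K27ac and H3K4me3, 238 for H3K23ac, 180 for H2AK5ac and 41 for H3K9ac. Neither receptor promoter is unusual in carrying the commoner marks. Among 21262 promoters of 17491 genes, the share under at least 1 base of a peak was 51.0% for H3K14ac, 50.7% for H4K8ac, 51.1% for H3K18ac, 50.5% for H3K27ac, 52.5% for H3K4me3, 40.3% for H3K23ac and 39.8% for H3K9ac. H2AK5ac, which covered the Tie1 promoter and not that of Tek, was the least common at 18.8%.

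The 2 receptor promoters differed in sequence. The Tie1 promoter held 9 ETS cores, where the median promoter held 3 and 98.4% held fewer, and the Tek promoter held 2. At least 1 core is present in 95.7% of promoters, so presence alone separates few of them. Angpt4 held 5 cores with no peak over its promoter. The Tek promoter had a GC content of 52.0% and 3 CpG dinucleotides, Tie1 60.3% and 7, and Angpt4 61.3% and 7. All 3 had fewer CpGs than the median of 13, at a median GC content of 56.3%, and 23.9% of promoters had 3 or fewer.

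Other motifs were searched on both strands, and E-boxes and KLF motifs can overlap other matches. The GATA motif AGATAA was found once in Tek, 36 bases after the start, and not in Tie1; 9.65% of promoters hold it. The KLF motif CACCC was found 3 times in Tie1 and once in Tek, against 59.5% of promoters with a match. E-boxes (CANNTG, in 69.0% of promoters) numbered 2 in Tek and 1 in Tie1. The forkhead motif TGTTTAC (3.01%), the AP-1 motif TGANTCA (6.99%), the SOX motif ACAATG (2339 of the 21262 promoters), the GC box GGGCGG (46.2%) and TATAAA (12.6%) had 0 matches in both. These are matches of letters and not measured binding.

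Counted over the whole window, peaks of all 8 lists were present at 5 of 5 genes. The background for that is high: 44.6% of all protein-coding genes had all 8. With only peaks wider than the minimum of their list, 3 of 5 genes kept all 8 (18.6% of all genes); Tie1 then had 7 lists and Angpt1 6. Within 2 kb of the gene ends alone, Tek and Ptprb had 7 lists and Angpt1 6. By list, a peak was present at 89.8% of genes for H3K14ac, 75.4% for H4K8ac, 77.3% for H3K18ac, 71.6% for H3K27ac, 69.7% for H3K23ac, 55.2% for H2AK5ac, 69.6% for H3K4me3 and 59.2% for H3K9ac. Longer genes hold more: the share with all 8 was 74.0% among genes of 108509 bp or more, the length decile of Tek, Angpt1 and Ptprb, and 58.6% among genes of 35851 to 57134 bp, the decile of Angpt2. It was 46.8% in the decile of Tie1, 17172 to 24584 bp. Presence of every mark therefore says little about these genes, and their places and amounts are given next.

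**Figure D1:**
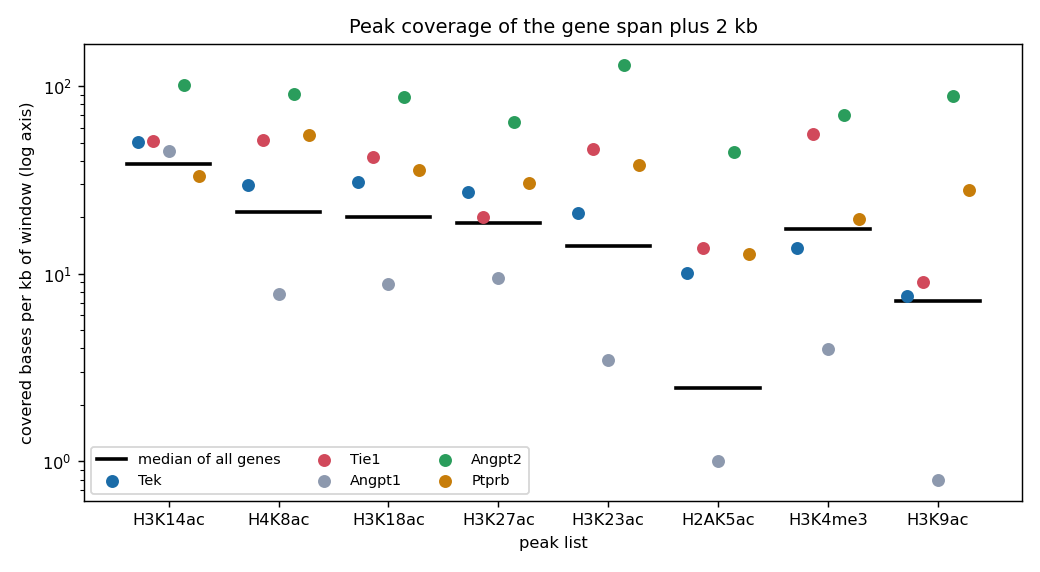
Bases covered by peaks of each list per kb of window (log axis) for the 5 genes, with the median of all 21883 genes as a black bar. Angpt2 lies highest of the 5 in every list, and Angpt1 lies lowest in every list but H3K14ac.

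**Figure D2:**
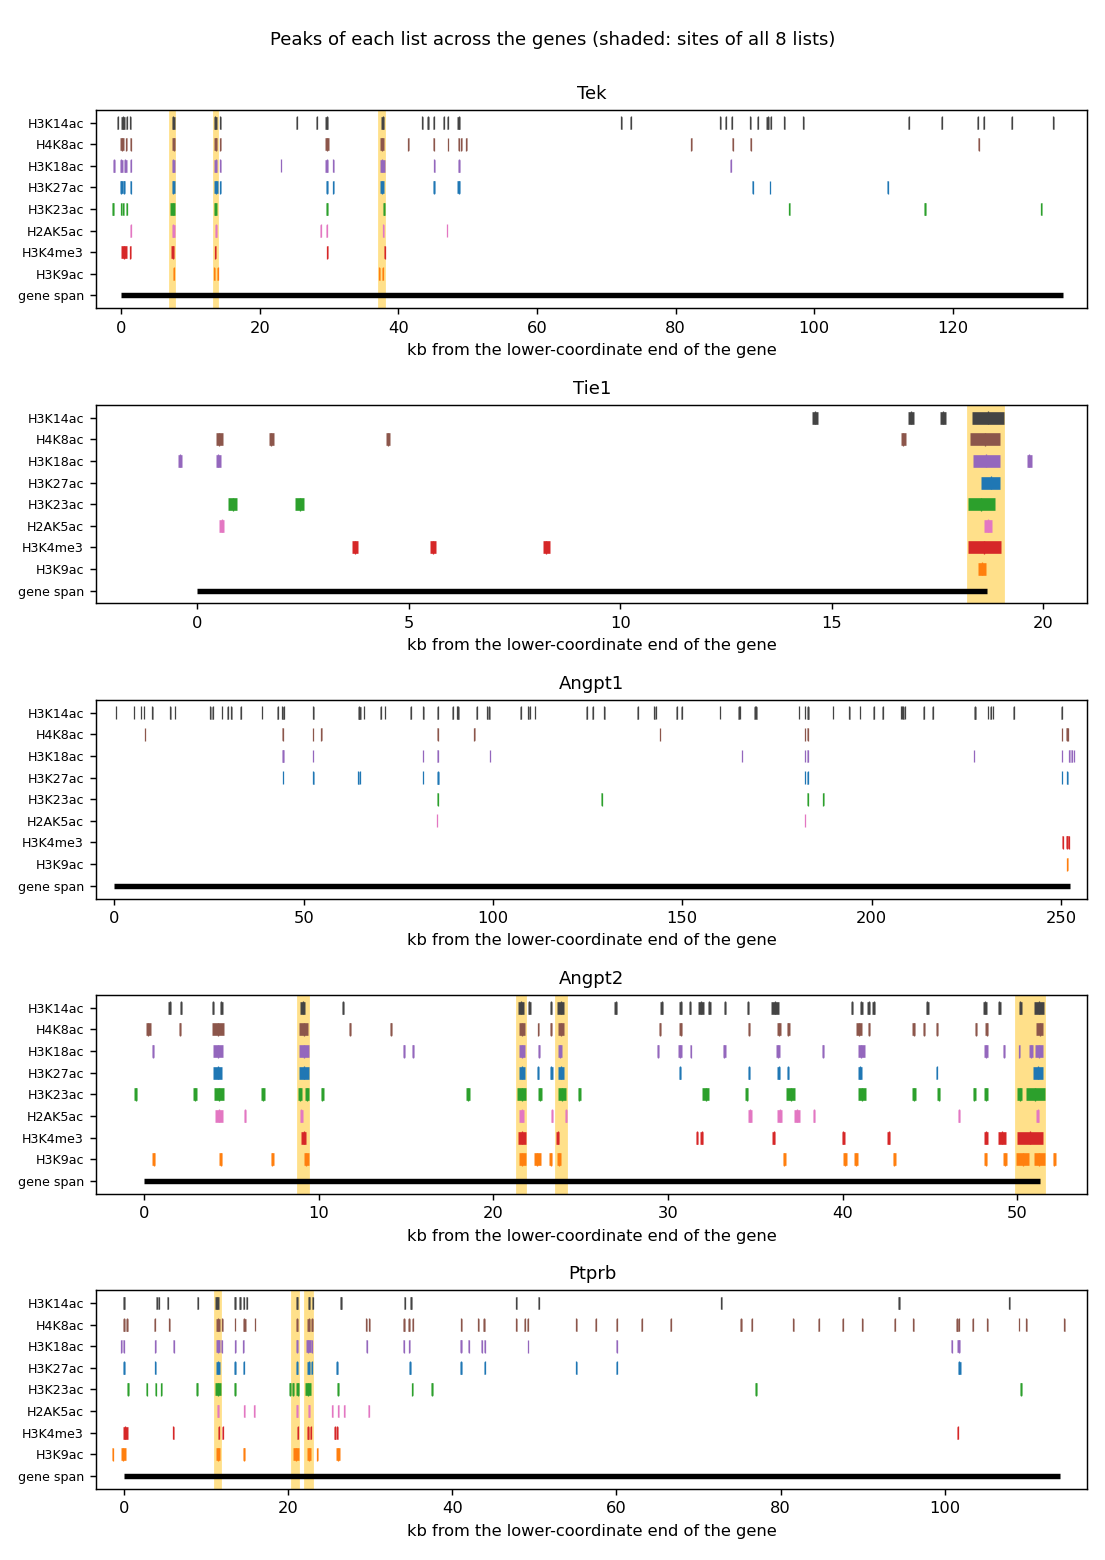
Peaks of each of the 8 lists along the 5 genes, by distance in kb from the lower-coordinate end; each bar is 1 peak, drawn with a minimum line width, and shading marks sites of all 8 lists. In Tek and Ptprb the shaded sites lie in the part near the lower end, in Angpt2 they are spread over the gene, and Angpt1 shows H3K14ac peaks along its length with few of the other marks.

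Tek (GeneID 21687, chr4:94739086-94874976) held 109 peaks, with 34 of H3K14ac, 18 of H4K8ac, 14 of H3K18ac, 14 of H3K27ac, 11 of H3K23ac, 7 of H2AK5ac, 6 of H3K4me3 and 5 of H3K9ac. Per 10 kb of window this is 7.79 peaks, near the 7.00 of the median gene. Its coverage per kb lay between the 46.1st percentile of all genes for H3K4me3 and the 71.7th for H2AK5ac. In amount, the Tie2 receptor gene was thus close to the middle of all genes, which were not matched for length. The median gene of its length decile held 121 peaks.

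The peaks of Tek were gathered near 1 end. Peaks that share at least 1 base were merged into sites, and the 9 Tek sites with peaks of at least 4 lists began within 48.5 kb of the lower end of a gene of 135891 bp. The widest of them, chr4:94738858-94739996 (1139 bp), lay over the start and held 6 lists, without H2AK5ac and H3K9ac. Within 2 kb of the start, 1322 bases were covered by H3K18ac, 1029 by H3K14ac, 934 by H3K4me3, 824 by H3K23ac, 803 by H3K27ac, 768 by H4K8ac and 129 by H2AK5ac. H3K9ac covered 0 there. At the far end only 1 H3K14ac peak of 138 bases was found.

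The 5 H3K9ac peaks of Tek lay inside the gene. They fell in the 3 sites of all 8 lists, at chr4:94746187-94746868 (682 bp, 7.10 kb from the lower end), chr4:94752416-94753108 (693 bp, 13.3 kb) and chr4:94776251-94777185 (935 bp, 37.2 kb). Another interior site, chr4:94768470-94769014, held 7 lists and lacked H3K9ac. All 6 H3K4me3 peaks of Tek overlapped H3K27ac peaks, against 53.6% of H3K4me3 peaks over all chromosomes. The remaining 3 sites of exactly 4 lists, between 14.2 and 48.5 kb, held the same marks each time: H3K14ac, H4K8ac, H3K18ac and H3K27ac. This combination is common, at 54.3% of the 18866 sites of exactly 4 lists on all chromosomes. An enhancer in the first intron of Tek is widely used to drive endothelial transgenes; its coordinates and the exons of Tek were not used here, so no site was matched to it.

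Tie1 (GeneID 21846, chr4:118471191-118489849) is the shortest of the 5 genes, and its marks met at 1 place. Of 24 peaks, 5 were of H4K8ac, 4 each of H3K14ac, H3K18ac and H3K4me3, 3 of H3K23ac, 2 of H2AK5ac, and 1 each of H3K27ac and H3K9ac. The single site with 4 or more lists, chr4:118489407-118490261 (855 bp), lay over the start and held all 8. Within 2 kb of the start H3K14ac covered 1022 bases, H4K8ac 796, H3K4me3 785, H3K18ac 747, H3K23ac 631, H3K27ac 456, H3K9ac 204 and H2AK5ac 184. A site of all 8 lists was present in the window of 31.1% of genes, so Tie1 is not rare in this. Each of the other 3 H3K4me3 peaks of Tie1 lay inside the gene, and none of them overlapped an H3K27ac peak. Of the 15 Tie1 sites, 13 held 1 list.

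Angpt1 (GeneID 11600, chr15:42424667-42676977), the ligand known from mesenchymal and perivascular cells, is the longest of the 5 genes at 252311 bp and was the most sparsely covered. It held 113 peaks, of which 68 were of H3K14ac, 13 of H3K18ac, 12 of H4K8ac, 10 of H3K27ac, 4 of H3K23ac, 3 of H3K4me3, 2 of H2AK5ac and 1 of H3K9ac. The median gene of its length decile held 121 peaks. For H3K14ac its coverage of 44.9 bases per kb lay at the 57.8th percentile of genes. For the other 7 lists it lay between the 33.1st percentile (H3K18ac) and the 46.2nd (H2AK5ac), and H3K9ac covered 0.796 bases per kb against a median of 7.15. These percentiles and medians of coverage are over genes of all lengths and were not matched for length. No site held all 8 lists, where 43.9% of genes in its length decile had at least 1. Of its 81 sites, 72 (88.9%) held 1 list, against 82.7% of the 819773 sites on all chromosomes.

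What H3K4me3 and H3K9ac Angpt1 had lay at its upper-coordinate end. There chr15:42676089-42676532 (444 bp) held H4K8ac, H3K27ac, H3K4me3 and the single H3K9ac peak, and chr15:42674815-42675367 held 5 lists including H3K4me3. Within 2 kb of that end H3K4me3 covered 992 bases, H3K18ac 462, H4K8ac 428, H3K27ac 323, H3K9ac 204 and H3K14ac 132, and H3K23ac and H2AK5ac covered 0. The site with the most lists in Angpt1, chr15:42509870-42510342, held 6 and lacked H3K4me3 and H3K9ac. It lay 85.2 kb from the lower end. Angpt1 overlaps the lncRNA gene Gm41313, from which its peaks cannot be told apart where the 2 coincide.

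Angpt2 (GeneID 11601, chr8:18690263-18741562) had the densest marks. Its 146 peaks were 28 of H3K14ac, 23 of H4K8ac, 22 of H3K23ac, 20 of H3K18ac, 17 of H3K9ac, 13 of H3K27ac, 12 of H2AK5ac and 11 of H3K4me3. That is 26.4 peaks per 10 kb, where Angpt1 had 4.41, and the median gene of its length decile held 32 peaks. Its coverage lay at or above the 82.3rd percentile of genes in every list. H3K23ac covered 130 bases per kb against a median of 14.1, H3K9ac 88.8 against 7.15, and H2AK5ac 44.6 against 2.45, which put H2AK5ac highest, at the 96.4th percentile.

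The widest Angpt2 site, chr8:18740211-18741851 (1641 bp), lay at the upper-coordinate end and held all 8 lists. Within 2 kb of that end H3K9ac covered 1640 bases, H3K4me3 1551, H3K23ac 1417, H3K18ac 825, H3K14ac 720, H3K27ac 584, H4K8ac 394 and H2AK5ac 129. Its widest H3K4me3 peak, 1510 bp, lay there. Of the other 3 sites of all 8 lists, chr8:18699061-18699742 lay 8.80 kb from the lower end, chr8:18711627-18712149 at 21.4 kb and chr8:18713863-18714505 at 23.6 kb. At Angpt2 8 of 17 H3K9ac peaks overlapped an H3K27ac peak, where 5 of 5 did at Tek and 63.1% over all chromosomes. Of the 14 Angpt2 sites with at least 4 lists, 10 held H3K9ac, against 3 of 9 in Tek, 1 of 7 in Angpt1 and 43.8% of 64304 such sites on all chromosomes.

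Angpt2 lies wholly inside Mcph1 (chr8:18595116-18808089), a gene of chromosome condensation and the DNA damage response, so peaks in Angpt2 are also peaks in Mcph1. The Angpt2 window held from 34.3% of the Mcph1 peaks for H2AK5ac to 61.1% for H3K23ac, and 4 of the 8 Mcph1 sites of all 8 lists. Peaks alone do not say which of the 2 genes a site belongs to.

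Ptprb (GeneID 19263, chr10:116275502-116389538), the VE-PTP gene, held 144 peaks. H4K8ac led with 43, ahead of 22 of H3K18ac, 21 of H3K14ac, 16 of H3K23ac, 15 of H3K27ac, 10 of H3K4me3, 9 of H2AK5ac and 8 of H3K9ac. Of these, 21 H4K8ac peaks and 8 H3K14ac peaks were wider than the minimum of their list. In the other 4 genes no list exceeded H3K14ac by more than 1 peak. The H4K8ac coverage of Ptprb lay at the 78.5th percentile of genes and that of H3K14ac at the 43.0th. The H4K8ac peaks ran along the whole gene, while the sites of many lists lay near the lower-coordinate end.

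At that lower end of Ptprb, chr10:116275113-116276087 (975 bp) held 7 lists and lacked H2AK5ac. Within 2 kb of it H3K9ac covered 793 bases, H3K4me3 612, H4K8ac 421, H3K18ac 350, H3K27ac 233, H3K14ac 210 and H3K23ac 206. The gene Ptprr ends 570 bp before Ptprb begins, so this window takes in part of Ptprr. At the upper end only H4K8ac had a peak, of 102 bases. The 3 interior sites of all 8 lists were chr10:116286615-116287338 (724 bp, 11.1 kb from the lower end), chr10:116295966-116296829 (864 bp, 20.5 kb) and chr10:116297554-116298555 (1002 bp, 22.1 kb). Among the 10 Ptprb sites of at least 4 lists only chr10:116376919-116377457 lay beyond 34.7 kb, at 101 kb.

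**Figure D3:**
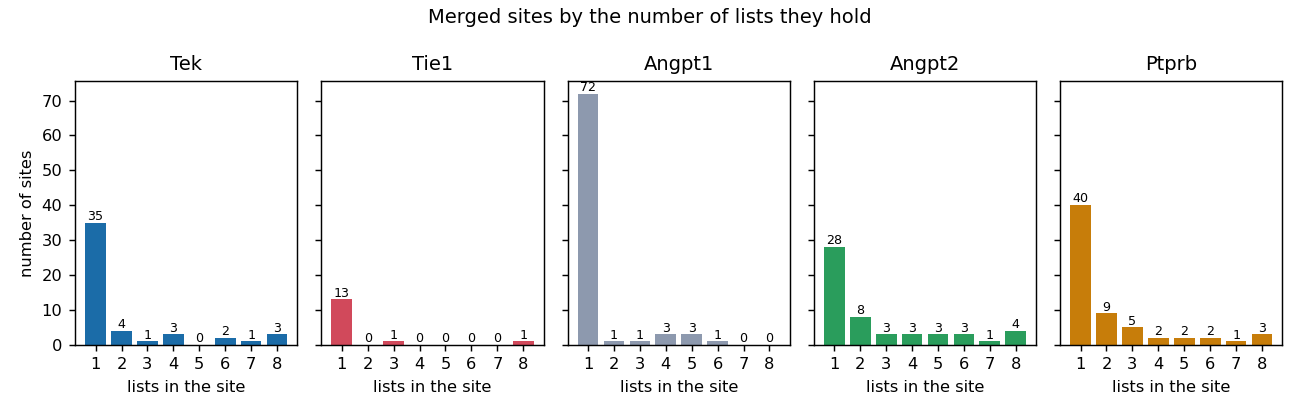
Number of merged sites in each gene by how many of the 8 lists they hold. Sites of 1 list are the largest class in every gene, from 13 in Tie1 to 72 in Angpt1, and sites of all 8 number 3 in Tek, 1 in Tie1, 0 in Angpt1, 4 in Angpt2 and 3 in Ptprb.

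Sites of all 8 lists inside a gene and over 2 kb from both ends set Tek, Angpt2 and Ptprb apart from Tie1 and Angpt1. Each of the former had 3, and the latter had 0. Of all genes 1.70% (371 genes) had at least 3; this number was taken with the counts of the 5 genes known. Length bears on it: 9.82% of genes in the decile of Tek, Ptprb and Angpt1 reached 3. In the decile of Angpt2 1.55% did, and in that of Tie1 0.183%. When only peaks wider than the minimum of their list were kept, Tek and Angpt2 had 1 such site each and Ptprb 2. Of all genes 4.75% then had at least 1, and 0.558% had at least 3. Other endothelial genes had similar numbers: Eng had 4, Pecam1 3, Cdh5 and Flt4 2 each, and Kdr and Flt1 1 each.

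**Figure D4:**
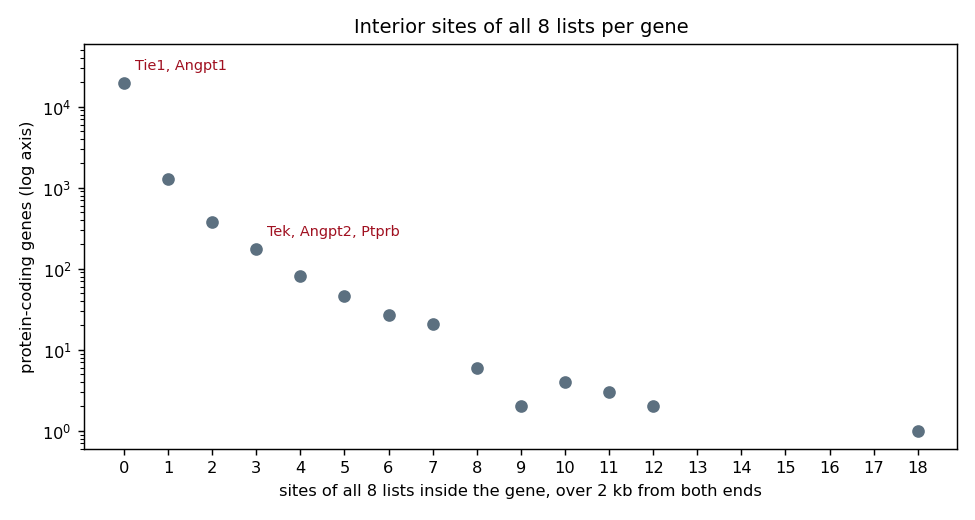
Number of protein-coding genes (log axis) with each number of interior sites of all 8 lists. Tie1 and Angpt1 lie with the 19849 genes at 0, and Tek, Angpt2 and Ptprb with the 177 genes at 3.

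Only part of the reads can be placed at a gene, since many identifiers of the count table, though not most, sum over several places. Placeable reads are those of identifiers with 1 region, and all these regions belong to the H3K14ac list, so a high H3K14ac count in them follows from how they were called. They number 34 in Tek, 4 in Tie1, 68 in Angpt1, 28 in Angpt2 and 0 in Ptprb, for which no read is given. Levels are in CPM, reads scaled to the total of their library, and densities in CPM per kb of unshared bases, those covered by no other identifier. Bases under a peak of another list are thereby left out, so low counts of the other marks also follow from this choice.

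In Tek, 3380 unshared bases held 513 H3K14ac reads, 60 of H3K27ac, 12 of H3K18ac and 3 of H4K8ac. H3K23ac, H2AK5ac, H3K4me3, H3K9ac and IgG had 0 there. A limit set at 3 counts is 2.03 CPM for H3K4me3 and 8.20 CPM for IgG. It is the same for any number of bases, so a multiple of it grows with the unshared bases summed and is not compared between genes. For 0 IgG reads the 95% Poisson interval reaches 10.1 CPM. H3K14ac (51.1 CPM, 95% Poisson interval 46.7 to 55.7) stood at 6.23 times the IgG limit of 8.20 CPM. H3K27ac (23.7 CPM, 18.1 to 30.5) stood at 2.89 times that limit. Per kb its interval, 5.35 to 9.02, takes in the 5.37 CPM per kb that IgG averaged over all placeable regions. The H3K27ac reads are spread thinly, at most 8 in a region, and with at least 10 reads required per region the H3K27ac level is 0 and its fold over IgG is lost. All 12 H3K18ac reads came from 1 region just outside the lower end of the gene.

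In Tie1, 487 unshared bases held 112 H3K14ac reads, 22 of H4K8ac, 21 of H3K4me3, 19 of H3K27ac, 9 of H3K18ac, 8 of H3K23ac and 0 of H2AK5ac, H3K9ac and IgG. H3K4me3 stood at 14.2 CPM (8.80 to 21.7), H4K8ac at 12.6 (7.88 to 19.0) and H3K14ac at 11.2 (9.18 to 13.4). The interval of H4K8ac takes in the IgG limit of 8.20 CPM and the other 2 begin close above it. With at least 10 reads required per region H3K4me3 was 7.45 CPM and H4K8ac 5.71, both under that limit, so neither mark is clear of IgG here. The H3K4me3 reads lay mostly just inside the start: 11 of 21 were in 1 region 0.964 kb from it.

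In Angpt1, 9572 unshared bases held 1369 H3K14ac reads, 117 of H3K27ac, 29 of H3K18ac and 9 of H4K8ac, with 0 of H3K23ac, H2AK5ac, H3K4me3, H3K9ac and IgG. H3K14ac (136 CPM, 129 to 144) stood at 16.6 times the limit of IgG and H3K27ac (46.2 CPM, 38.2 to 55.4) at 5.63 times. H3K18ac (18.8 CPM, 12.6 to 26.9) stood at 2.29 times that limit. Per kb, H3K27ac was 4.83 and H3K18ac 1.96, both under the 5.37 CPM per kb that IgG averaged over all placeable regions. With at least 10 reads required per region H3K27ac was 4.34 CPM, under the limit of IgG, and its fold is lost. No region held more than 6 H3K18ac reads, so that filter would leave none of them. Tek and Angpt1 were both at 0 for H3K23ac, H2AK5ac, H3K4me3 and H3K9ac, as were 73.3%, 85.0%, 49.3% and 84.8% of the 6824 genes with at least 500 unshared bases. Bases under the peaks of these marks are not among the unshared bases, so these values do not show that the marks are absent.

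Angpt2 differed: its 1711 unshared bases held 228 H3K14ac reads, 127 of H3K27ac, 99 of H4K8ac, 43 of H3K18ac, 40 of H3K9ac, 38 of H3K4me3, 2 of H3K23ac, 1 of H2AK5ac and 0 of IgG. Much of this came from 1 region of 138 bp, chr8:18712263-18712400, which lies between the site of all 8 lists that ends at 18712149 and a site of 5 lists that begins at 18712572. It held 73 of the 99 H4K8ac reads, 31 of the 43 H3K18ac reads, 40 of the 40 H3K9ac reads, 17 of the 38 H3K4me3 reads and 42 of the 127 H3K27ac reads.

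Per kb, the H3K14ac intervals of Tek, Angpt1 and Angpt2 overlapped, and their H3K27ac levels were farther apart. H3K14ac stood at 15.1 CPM per kb in Tek (95% Poisson interval 13.8 to 16.5), 14.2 in Angpt1 (13.5 to 15.01) and 13.3 in Angpt2 (11.6 to 15.1), and at 22.9 in Tie1 (18.9 to 27.6). H3K27ac stood at 29.3 CPM per kb in Angpt2 (24.4 to 34.9), 15.4 in Tie1 (9.27 to 24.1), 7.01 in Tek (5.35 to 9.02) and 4.83 in Angpt1 (3.99 to 5.78). The intervals of Tek and Angpt1 overlap. Those of Angpt2 and Tie1 do not, but they end close together, at 24.4 and 24.1. Because mates were counted singly, that narrow gap is not read as a difference. Without the region named above, Angpt2 held 21.3 CPM per kb of H3K27ac (17.0 to 26.4), which still lies above the intervals of Tek and Angpt1 and overlaps that of Tie1. Its H4K8ac level was 33.1 with that region and 9.45 (6.17 to 13.8) without, where Tek had 0.507 and Angpt1 0.537. H3K9ac was 14.4 with it, and without it there were 0 reads.

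Among these 6824 genes, Angpt2 lay at the 98.7th percentile for H4K8ac, the 98.3rd for H3K9ac, the 97.5th for H3K27ac and the 60.4th for H3K14ac. Without its region of 138 bp these were the 90.0th, the 42.4th, the 93.5th and the 36.5th, so the H3K9ac rank rests on that region. Tek lay at the 82.4th for H3K14ac and the 53.2nd for H3K27ac, and Angpt1 at the 73.9th and the 35.1st. Tie1 has under 500 unshared bases and was not ranked. IgG had 0 placeable reads in all 4 genes. Counting every identifier that touches a gene, also those that sum over other places, IgG had at most 0 reads in Tek, Tie1 and Angpt1, 1 in Angpt2 and 2 in Ptprb; its library is the smallest at 365999 reads.

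**Figure D5:**
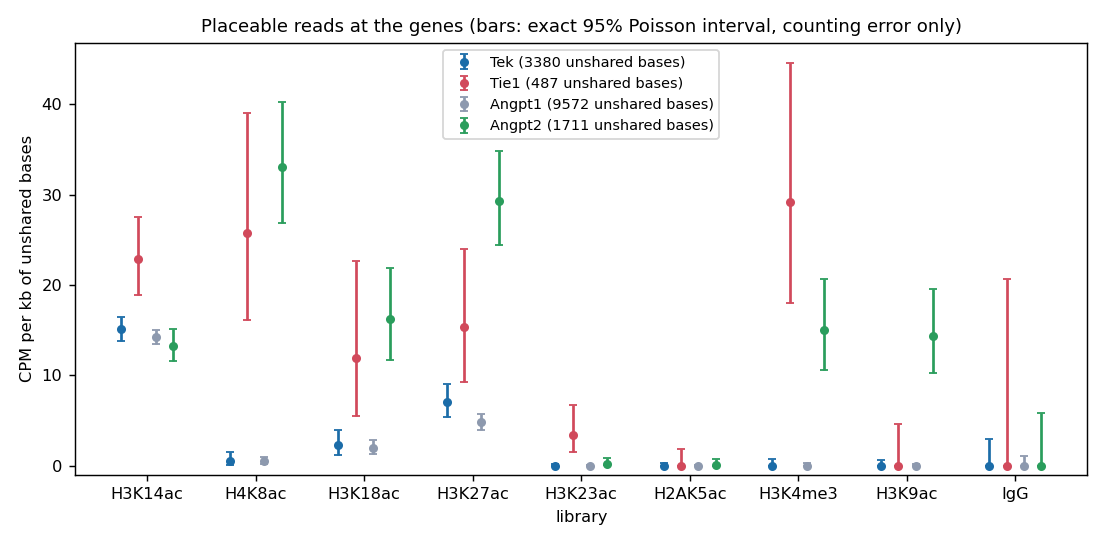
Placeable reads in each of the 9 libraries, in CPM per kb of unshared bases, for the 4 genes that have any; bars are exact 95% Poisson intervals of counting error. H3K14ac lies between 13.3 and 22.9 in all 4 genes, while Angpt2 holds 29.3 of H3K27ac against 7.01 in Tek and 4.83 in Angpt1, and IgG is at 0 throughout with intervals that widen as the unshared bases fall.

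Over the 8 values of log2(covered bases per kb + 1), Tek and Ptprb were the pair nearest to each other (Euclidean distance 2.27), followed by Tie1 and Ptprb (2.31) and Tek and Tie1 (2.48). Angpt1 and Angpt2, the 2 ligands of the same receptor, were the farthest apart at 10.97. Among all genes, those nearest to Tek were Eif3h (0.435), Atp11a (0.472) and Srgap3 (0.517), where the median gene lay 5.82 from Tek. Nearest to Tie1 were Mettl14 (1.10), Unc93b1 (1.17) and Mgat4a (1.20). Nearest to Angpt1 were Brinp1 (0.815), Pcca (0.822) and Cep112 (0.997), to Angpt2 Coro1c (0.440), Cd9 (0.460) and Ino80c (0.461), and to Ptprb Kpna1 (0.491), Dnajc5 (0.548) and Traf3 (0.562). None of these 15 genes belongs to the pathway list, and coverage that is alike says nothing of shared function.

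A list of 33 other genes of the pathway, made up of ligands and modifiers, adaptors, outputs and transcription factors known to act at Tie or angiopoietin genes, was described in the same windows. All 8 lists were present at 28 of 33 (84.8%, against 44.6% of all genes), with a median of 62 peaks per gene against 19. Longer genes hold more, as given above, and these values were not matched for length. By role these were 3 of 4 ligands and modifiers, 9 of 13 adaptors and signalling genes, 7 of 7 outputs and partners and 9 of 9 factors. Angpt4 had 33 peaks of all 8 lists and no site of all 8. Svep1, an extracellular protein that binds TIE1, had 4 lists, and Grb7, an adaptor that binds activated Tie2, had 3. At least 3 interior sites of all 8 lists were found in 3 of the 33, the ETS factor genes Ets1 (5), Fli1 (3) and Erg (3). Of all genes 1.70% had as many, and 9.82% in the longest length decile, to which these ETS factor genes belong. Of 6 other endothelial receptor and junction genes, 5 had a density of peaks closer to Angpt2 than to Tek. Flt4 had 32.3 peaks per 10 kb, Eng 26.0, Cdh5 24.1, Pecam1 22.3 and Kdr 22.1, while Flt1, at 8.88, was close to the 7.79 of Tek.

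The labelled cell type was checked against marker genes in the same windows. All 8 lists were present at 7 of 8 endothelial markers, 2 of 8 mesenchymal and pericyte markers, 2 of 7 lung epithelial markers and 1 of 6 leukocyte markers, beside 44.6% of all genes; Cldn5, a defining endothelial gene, had 0 peaks. Median numbers of lists were 8, 7, 7 and 6, against 7 over all genes, and within 2 kb of the gene ends 8, 4, 4 and 3.5, against 6. Sftpc, a gene of lung epithelium, had all 8 lists at its ends. The part of other cell types in the values of Angpt1, whose known sources are mesenchymal, was not tested.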

How the data were processed

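The authors deposited 1 table of read counts over 578465 region identifiers in 9 libraries of 365999 to 10044130 reads. Per the file headers, reads were counted with featureCounts 2.0.6, paired, without strand, each mate singly, and reads over more than 1 identifier were dropped. The submitters' processing notes name Trim Galore, STAR, MACS2 and DESeq2; the sources used here give no settings, no treatment of duplicates and no role of IgG in calling peaks.

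The table joins 8 peak lists under shared identifiers, 1309635 regions in all. They were separated by requiring genome order within a list and, for each region, at least the commonest width of that list. No identifier broke this. The steps were tested on simulated lists placed independently of each other. Their minimum widths lay farther apart than the 102, 104 and 108 bases of H4K8ac, H3K18ac and H3K27ac. Separation of lists that lie together, as the real ones do, was not tested. Lists were named by size, as in the rule that chose the genes, and each was densest in the library of its name (H3K27ac list: 44.1 CPM per kb, IgG 22.2). Sizes ran from 48943 peaks (H3K9ac) to 578465 (H3K14ac), with 20.0% to 80.9% at the minimum width. Numbers of peaks of different marks are therefore not read as their relative amounts. Starts were taken as 0-based, and printed positions are 1-based. Placeable reads were 1.04% (H3K23ac) to 66.3% (H3K14ac) of a library; at all placeable regions IgG averaged 5.37 CPM per kb, in 261 regions. On chromosome 10, which holds Ptprb, no identifier has 1 region.

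Genes came from a RefSeq table of GRCm38.p6 without strand; exon models were not used here. Python 3.11.15, numpy 2.4.6, pandas 2.3.3 and scipy 1.17.1 were used. Genes named were the 5 members, up to 10 genes of the pathway list with few or all lists, and the 3 nearest genes of each member. Comparators, markers and neighbouring or overlapping genes are also named; of the markers, Cldn5 and Sftpc were picked after their values were seen. The members, the lists and the rules were chosen with earlier results of these data known. Alternatives were other windows, wider peaks only, order alone, other scalings, read filters and priors.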

Additional observations from a re-analysis of the deposited data

How the results depend on the processing

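With 1 library per target, no alternative could leave out a replicate. No paired analysis was possible because each target has 1 library. Of 173 alternative values, 133 stayed within the counting interval of the value reported (reads) or within 1.5 times of it (peaks, sites and bases). Some could not move: reads of 0 stay 0 when rescaled or filtered, and a wider window cannot take away a list. A fall from 8 lists to 6 also counts as close, so the tally is no measure of robustness. The call of all 8 lists was lost with wider peaks only at Tie1 (7 lists) and Angpt1 (6), and at gene ends alone at Tek (7), Angpt1 (6) and Ptprb (7). Counting only 2 kb either side of the gene ends left 22 peaks at Tek, 15 at Angpt1, 22 at Angpt2 and 11 at Ptprb. Keeping only peaks wider than the minimum of their list left 54 at Tek, 8 at Tie1, 40 at Angpt1, 74 at Angpt2 and 75 at Ptprb, and 1 interior site of all 8 lists each at Tek and Angpt2. With 10 kb either side Tie1 had 37 peaks, and within 1 kb of the Tek start H2AK5ac covered 0 bases.

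A minimum of 10 reads per region lowered H3K27ac to 0 CPM at Tek, 4.34 at Angpt1 and 25.7 at Angpt2, H4K8ac to 0 at Tek and Angpt1 and 5.71 at Tie1, and H3K4me3 to 7.45 at Tie1. Regions with no shared base gave H3K14ac levels of 129 CPM at Angpt1 and 15.7 at Angpt2, and 37.9 CPM of H3K27ac and 12.2 of H3K4me3 at Angpt2. Placing also identifiers of which 1 region has unshared bases, chosen after seeing the data, gave 67.1 CPM of H3K27ac and 115 of H4K8ac at Angpt2. IgG had 0 reads in all 4 genes with placeable reads, so log2 ratios to IgG rest on the prior count: 14 of 16 moved beyond counting error with the smaller prior, and none is used. The shallow IgG library limits every comparison with background.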
